A study of Mus musculus with 9 samples.

Results

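Imp3 and 41 other genes of ribosome biogenesis and the nucleolus were followed through the bone marrow cells of mice with and without a floxed Pot1a gene. The 42 genes were taken by symbol from the 9 deposited count tables, in which 15265 genes carried counts in at least 1 library, and a symbol missing from a table was counted as 0. Each of the 42 was found, Nifk under its older symbol Mki67ip. Polr1b was missing from 3 tables, and Utp20 and Bop1 from 1 table each. Together the 42 genes held 50357 counts, 1.93% of the counts of the series, and Imp3 held 418 of these. The question was whether the other nucleolar genes follow Imp3 across genotypes, lineages and stages of maturation.

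The marrow came from C57BL/6 mice aged 2 to 3 weeks, unselected, and had been profiled by Drop-seq, in which the RNA of a single cell is tagged by a barcoded bead in a droplet. There were 5 libraries of NG2-cre/Pot1awt/wt mice and 4 libraries of NG2-cre/Pot1afl/fl mice, called Pot1a wt/wt and Pot1a fl/fl below. The full names give the NG2-cre transgene to both groups, whereas the study's legend for this experiment calls the controls wildtype. Whether the controls carry it was not tested. In the transgene, Cre is under the NG2 promoter (NG2, encoded by Cspg4, is a proteoglycan of pericytes and mesenchymal stem cells). In Pot1a fl/fl mice, Pot1a, a protein that shields telomeres, is by this design removed in such cells and not directly in blood cells. Whether Cre was active in blood cells was not tested. In the study's methods, the names of the floxed Pot1a line and of the NG2-cre line include further strains, so that C57BL/6 may not be the whole background. Strain differences between the groups were not tested. No label says which mouse gave which library. In the study's legend for this experiment the mice of a group are fewer than its libraries, and some libraries must then share a mouse. The p-values here, taken over libraries, are then too small, and part of the spread they measure may be technical.

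Each library held 100 cell barcodes, and totals ran from 119459 to 465277 counts. Pot1a wt/wt 2 and 3 shared 19 barcodes with nearly the same counts (correlations of 0.932 to 0.965), whereas no other of the 36 pairs of libraries shared any, and 3 libraries, Pot1a wt/wt 2 and 3 and Pot1a fl/fl 2, read as male. Results that these libraries change are given without them or with sex as a term. Pot1a itself was near the detection limit, with 3, 9, 10, 6 and 2 counts in Pot1a wt/wt 1 to 5 and 10, 3, 1 and 15 counts in Pot1a fl/fl 1 to 4, and it had 0 counts in the 21 mesenchymal cells that were caught, so that the deletion could not be seen in these tables. Clusters were formed and named without the 42 genes and their pathway partners, by lineage markers, and are written as "-like". The B-lineage-like, granulocyte-like and erythroid-like classes held 233, 322 and 257 cells.

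Ribosomes are built in the nucleolus. RNA polymerase I copies the ribosomal DNA into a long precursor, small nucleolar ribonucleoproteins (snoRNPs) modify and fold it, the small-subunit (SSU) processome cuts out the 18S rRNA of the 40S subunit, and a chain of assembly factors matures the 28S and 5.8S rRNA of the 60S subunit. IMP3, IMP4 and MPHOSPH10 form a small complex that holds the U3 snoRNA to the precursor. Proliferating blood progenitors carry large nucleoli, and ribosome production is shut down as granulocytes and red cells mature. MYC, which binds the E-box CACGTG, drives many of these genes. In the set were 14 genes of the SSU processome and 18S maturation, 7 genes of snoRNP cores, 15 genes of 60S assembly and 6 genes of nucleolar structure and rRNA transcription.

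Imp3 lies on mouse chromosome 9, chr9:56937475-56938398 on the plus strand (GRCm38/mm10), and has 1 transcript of 1 exon in GENCODE M21. The sequence just before its start is shown because it is the promoter of the gene whose level differed between genotypes. The 220 bases below (chr9:56937250-56937469, plus strand, RefSeq on GRCm38) overlap no annotated exon.
Imp3: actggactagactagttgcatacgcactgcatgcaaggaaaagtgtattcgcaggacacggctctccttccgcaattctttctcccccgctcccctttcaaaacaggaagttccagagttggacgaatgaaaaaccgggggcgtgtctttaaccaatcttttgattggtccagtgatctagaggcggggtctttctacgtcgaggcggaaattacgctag
The E-box is shown in the other genes because it is the letter string by which ribosome biogenesis genes are best known as a group. Of the 38 genes of the set with an entry in the RefSeq promoter table (from 250 bases before to 50 after the start), 8 held CACGTG, 21.1%. The share was 12.9% over the 3493 genes tested in whole marrow that had an entry, and 7.15% over all 32851 promoters. The 8 are written 5′ to 3′ on the strand of the gene, with the E-box in capitals.
Imp4 (chr1:34439698-34439723, plus): ggtcttagacCACGTGacatcccaaa
Ltv1 (chr10:13193094-13193119, minus): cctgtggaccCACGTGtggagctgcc
Mybbp1a (chr11:72441357-72441376, plus): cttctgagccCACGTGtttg
Pes1 (chr11:3963967-3963992, plus): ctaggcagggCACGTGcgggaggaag
Tsr1 (chr11:74898094-74898119, plus): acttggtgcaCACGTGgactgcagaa
Utp18 (chr11:93885771-93885796, minus): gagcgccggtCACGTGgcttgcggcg
Utp20 (chr10:88826765-88826787, minus): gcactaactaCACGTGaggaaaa
Wdr43 (chr17:71616222-71616247, plus): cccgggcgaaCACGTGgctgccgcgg
The E-box began 121 bases before the start in Imp4 and 20 before it in Utp18, and from 3 (Pes1) to 41 (Mybbp1a) bases after it in the other 6. The Imp3 promoter did not hold these letters, which says nothing of the factors that bind there. Of the 7 other strings searched on both strands, CGCGAG was in 12 of the 38 (31.6%, against 27.1% of tested genes and 11% of all promoters). CACATG was in 8 (21.1%, against 8.7% of tested genes and 14.2% of all promoters). TCGCGA was in 4 (10.5%, against 7.41% of tested genes). GTGACGTG and GCCATNTTG were in 1 each (2.63%, against 1.63% and 6.61% of tested genes). The M-box palindrome and the GATA string AGATAA were in 0, against 1.6% and 7.62% of tested genes. CGCGAG and TCGCGA overlap each other within the M-box.

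In whole marrow, Imp3 was higher in every Pot1a fl/fl library than in every Pot1a wt/wt library, and no other gene of the set passed the test. Imp3 stood at 39.7, 39.1, 113, 71.3 and 55.8 CPM (counts scaled to a total of 1000000 per library) in Pot1a wt/wt 1 to 5. It stood at 234, 295, 251 and 273 CPM in Pot1a fl/fl 1 to 4. The groups did not overlap, and their means were 63.8 ± 30.5 (SD, n = 5) and 264 ± 26.6 (SD, n = 4). The log2 fold change was 2.08 ± 0.27 (SE, edgeR quasi-likelihood test, adjusted p = 0.0021). Of the 4559 genes tested, 3 passed the threshold of 0.05, a share of 0.0658%, each of them higher in Pot1a fl/fl. Without Pot1a fl/fl 2 or Pot1a wt/wt 1, 2, 3 or 5 only 1 gene passed, and Imp3 passed without each library in turn (1.92 to 2.38). Imp3 had been seen to differ in these libraries before the set was drawn up around it, so that this test repeats what led to the choice. DESeq2 gave Imp3 no adjusted p in whole marrow. The counts behind these values were small, 91 in the Pot1a wt/wt and 327 in the Pot1a fl/fl libraries. They came from 70 of 499 and 163 of 400 cells, with at most 3 and 8 counts in a single cell.

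**Figure D1:**
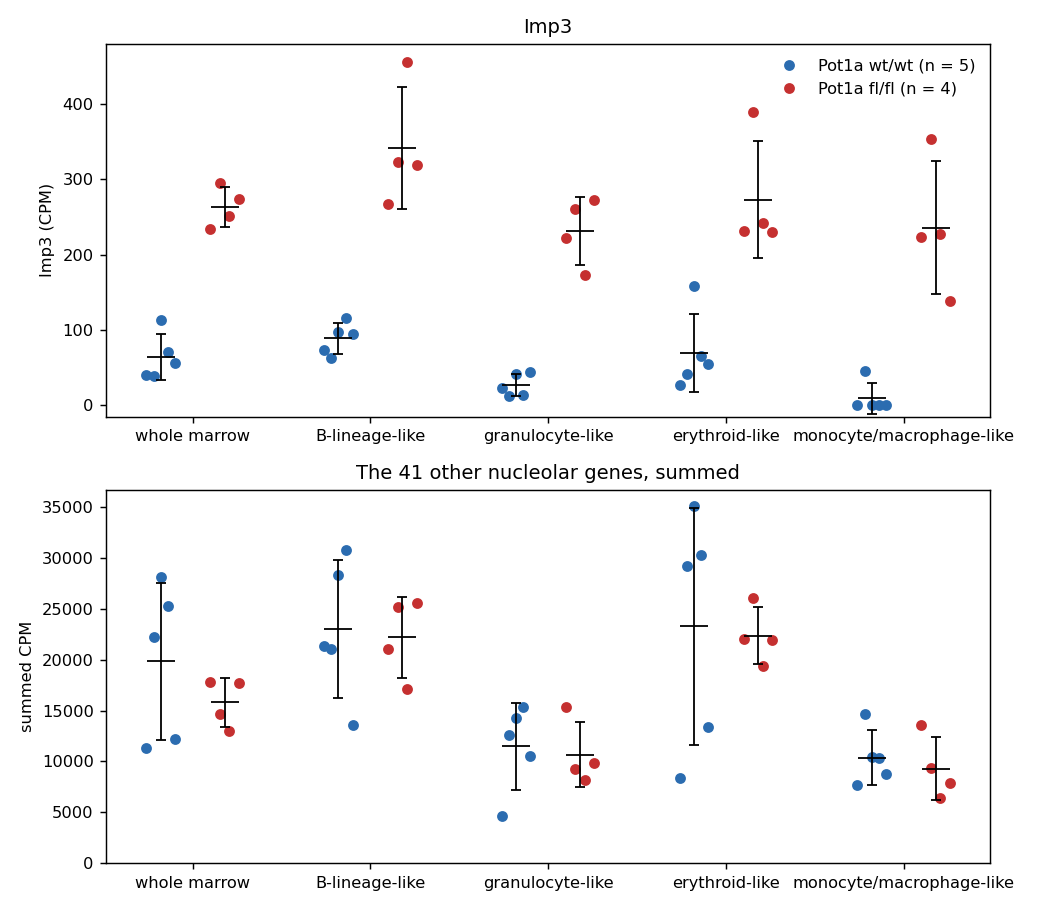
CPM of Imp3 (top) and of the 41 other genes summed (bottom) in whole marrow and 4 classes of cells. Each library is a point, and bars give the mean ± SD (n = 5 Pot1a wt/wt and 4 Pot1a fl/fl). The Imp3 points of the groups are apart in each class, from 234 to 295 CPM against 39.1 to 113 CPM in whole marrow, whereas the points of the other genes overlap in each.

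The other 41 genes, summed, gave 11279, 22253, 28120, 25336 and 12152 CPM in Pot1a wt/wt 1 to 5 and 17830, 14687, 12975 and 17756 CPM in Pot1a fl/fl 1 to 4. The 4 Pot1a fl/fl values lay within the range of the Pot1a wt/wt values, with means of 15812 ± 2392 and 19828 ± 7697 CPM, and the means of the log2 values differed by −0.24. Leaving out 1 library moved this from −0.42 (without Pot1a wt/wt 1) to −0.09 (without Pot1a wt/wt 3). It was −0.39 without Pot1a wt/wt 5, −0.13 without Pot1a wt/wt 4 and −0.15 without Pot1a fl/fl 3. For each 1000 counts of the other genes, Imp3 had 3.52, 1.76, 4.02, 2.81 and 4.59 counts in Pot1a wt/wt 1 to 5 and 13.1, 20.1, 19.4 and 15.4 counts in Pot1a fl/fl 1 to 4. Thus Imp3 was higher both as a share of all counts and as a share of the nucleolar counts.

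Of the 42 genes, 35 had enough counts to be tested in whole marrow. The 7 left out, with 15 to 75 counts in all, were Imp4, Utp20, Rrp9, Heatr1, Fbl, Bop1 and Polr1b. None of the 34 tested genes other than Imp3 passed the threshold, their lowest adjusted p was 0.505 (Rrs1), and 2 had an unadjusted p below 0.05, as had 364 of all genes tested. Of the 34, 27 had a fold below 0 and 7 above it, with a median log2 fold of −0.21, where 2291 of the 4559 tested genes were below 0 and their median was −0.00. The folds ran from −0.61 (Noc3l) to 0.36 (Rrp1b). The upper end of the 95% interval of each of the 34 was under the lower end of that of Imp3, 1.55. The highest was that of Rrp1b, 0.98. Imp3 was chosen for its difference in these libraries, so that this separation is a description and no further support.

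No difference between genotypes was detected in the partners of Imp3 in its own complex. Mphosph10 (chr7:64376527-64392268, minus strand), the scaffold of the complex, had 199, 440, 458, 416 and 167 CPM in Pot1a wt/wt and 254, 235, 301 and 263 CPM in Pot1a fl/fl. The Pot1a fl/fl values lay inside the Pot1a wt/wt range, and the log2 fold was −0.31 ± 0.26 (adjusted p = 0.83). Imp4 (chr1:34439851-34449356, plus strand), the other partner in the complex, had only 34 and 41 counts, at 22.4 ± 14.2 (SD, n = 5) and 32.4 ± 18.02 CPM (SD, n = 4), and was not tested. Its libraries overlapped, from 6.98 to 42.7 and from 15.0 to 57.3 CPM. Of the 10 tested genes of the SSU processome and 18S maturation, Imp3 alone passed. Tsr1, a factor of late 40S assembly, had a log2 fold of −0.57 ± 0.33, and the U3-associated Utp3 of 0.02 ± 0.23.

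Among the genes of nucleolar structure, nucleolin (Ncl, chr1:86344719-86359400, minus strand), the most counted gene of the set with 20088 counts, had 4789, 8814, 10961, 10465 and 4562 CPM in Pot1a wt/wt and 7512, 5860, 5048 and 6945 CPM in Pot1a fl/fl. Pot1a wt/wt 1 and 5 were the lowest of all 9 libraries, and the log2 fold was −0.25 ± 0.24. Nucleophosmin (Npm1), a chaperone of ribosome assembly and nuclear export, had 986, 1951, 2414, 2154 and 1458 CPM against 1429, 1605, 1364 and 1747 CPM. Its groups overlapped in the same way, with a log2 fold of −0.15 ± 0.22. Nolc1, a chaperone of snoRNPs, and Ddx21, an RNA helicase of rRNA transcription and processing, had log2 folds of −0.54 ± 0.31 and −0.56 ± 0.30. Mybbp1a, which joins RNA polymerase I regulation to ribosome assembly, had −0.09 ± 0.23. The median of the 5 tested genes was −0.25.

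None of the snoRNP cores and the 60S factors passed. Nop58, a core protein of box C/D snoRNPs, had 723, 1546, 2344, 2133 and 705 CPM in Pot1a wt/wt and 1365, 1007, 938 and 1320 CPM in Pot1a fl/fl, with a log2 fold of −0.29 ± 0.29. Dkc1, the pseudouridine synthase of box H/ACA snoRNPs, had −0.19 ± 0.26, and Nhp2, its RNA-binding partner, had 0.30 ± 0.24. Of the 60S factors, Rsl1d1, a nucleolar protein that carries a ribosomal L1 domain, had −0.32 ± 0.30. Gnl3 (nucleostemin), a nucleolar GTP-binding protein of stem and progenitor cells, had −0.46 ± 0.27. Nip7, a factor of pre-rRNA processing, had 0.25 ± 0.29. Median log2 folds were −0.18 over the 6 tested snoRNP genes and −0.26 over the 14 tested genes of 60S assembly.

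**Figure D2:**
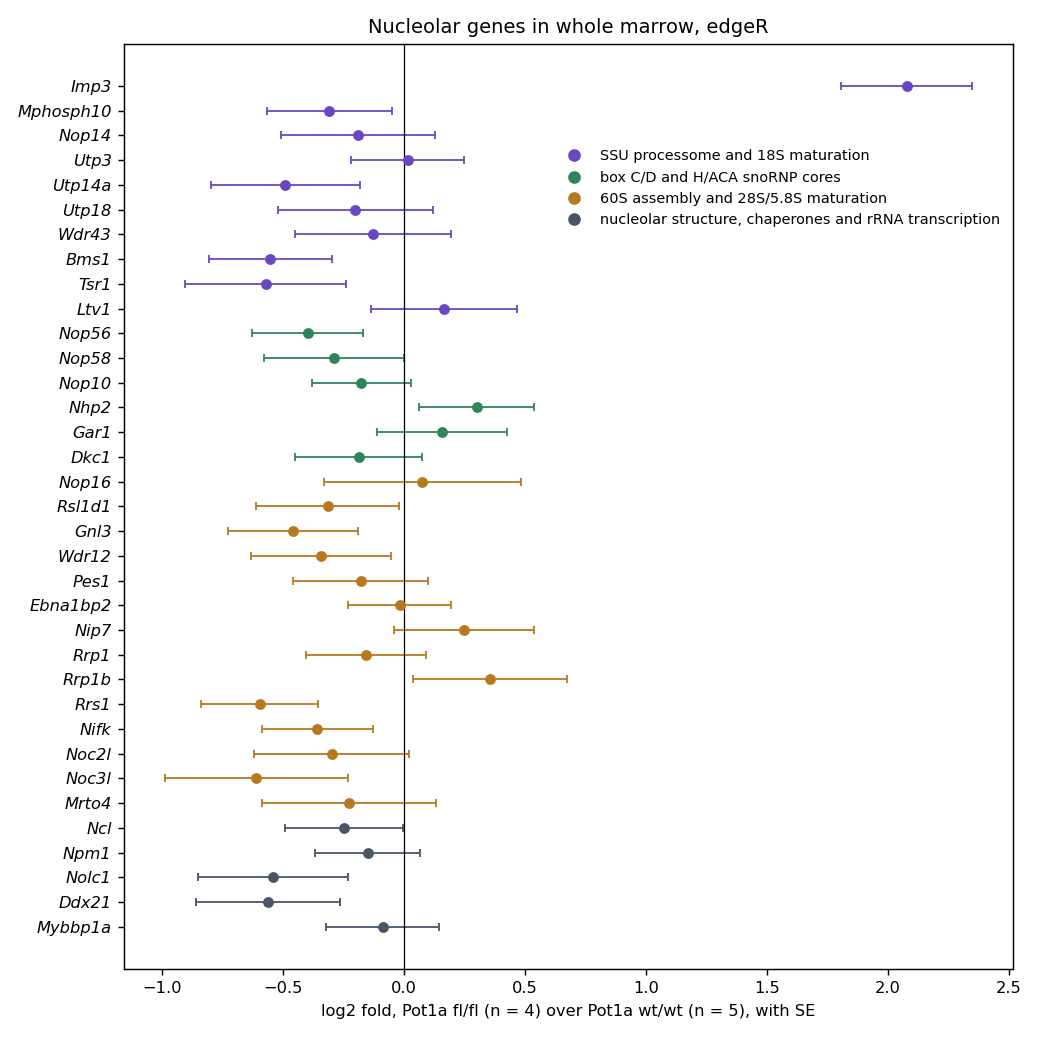
Log2 fold change between Pot1a fl/fl (n = 4) and Pot1a wt/wt (n = 5) whole marrow of the 35 tested genes, grouped by role, with bars of ± 1 SE. Imp3 lies at 2.08, and the other 34 genes lie between −0.61 and 0.36.

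Rrs1 (chr1:9545408-9547455, plus strand), which brings the 5S ribonucleoprotein to the 60S precursor, was the only other gene of the set whose groups did not overlap. It had 87.4, 101, 128, 128 and 112 CPM in Pot1a wt/wt and 70.9, 64.0, 58.6 and 85.9 CPM in Pot1a fl/fl, so that it was lower in the Pot1a fl/fl libraries. The gap was narrow, 87.4 against 85.9 CPM, and the log2 fold of −0.60 ± 0.24 did not pass (adjusted p = 0.505). Among all tested genes, 1.07% lay wholly below and 1.27% wholly above in the Pot1a fl/fl libraries. The count of 1 in 34 is to be read against these shares. Noc3l, an assembly factor of the early 60S precursor, had the lowest fold, −0.61 ± 0.38.

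No gene of the pathway outside the set passed either. Of 110 other ribosome biogenesis genes in the tables, 85 were tested in whole marrow and 0 passed by edgeR, 66 with a fold below and 19 above 0 and a median of −0.17. The most counted were Nol7, a nucleolar protein of rRNA processing, at −0.06 ± 0.20, and Taf1d, a subunit of the RNA polymerase I selectivity factor, at −0.26 ± 0.25. Median log2 folds of the S phase, G2/M, and Myc and growth lists were −0.23, −0.17 and −0.20. The share of cells in the early clusters described below, in which nucleolar genes stood highest, was 32.5 ± 7.73% in Pot1a wt/wt and 33.25 ± 3.59% in Pot1a fl/fl libraries. Within it, promyelocyte-like cells numbered 6, 11, 10, 11 and 18 in Pot1a wt/wt and 17, 20, 11 and 14 in Pot1a fl/fl. Early erythroid-like cells numbered 5, 13, 17, 15 and 8 against 6, 6, 11 and 6. Pro-B-like cells numbered 9, 8, 14, 9 and 8 against 7, 8, 9 and 18. The erythroid-like share was 33.9 ± 5.40% and 22 ± 5.48%, and the part of these shares in the whole marrow folds was not tested.

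The lineages split the same cells and libraries in which Imp3 had been seen to differ, so that the values of Imp3 within them are a description and no further support. In B-lineage-like cells, Imp3 had 73.3, 63.4, 97.0, 116 and 94.7 CPM in Pot1a wt/wt and 267, 322, 456 and 319 CPM in Pot1a fl/fl. The groups did not overlap, as in 0.667% of the genes tested in this class that lay wholly above in Pot1a fl/fl, and the log2 fold was 1.83 ± 0.33 (edgeR, adjusted p = 0.032), the only call among 1499 genes (0.0667%). This call was the least firm, since it was lost when any of the 9 libraries was left out (log2 folds of 1.72 to 1.97, adjusted p of 0.0574 to 0.193), with Pot1a wt/wt 2 and 3 merged into 1 library (1.79, adjusted p = 0.105) and with sex as a term (1.83, adjusted p = 0.058). The 24 other tested genes of the set had a median log2 fold of −0.06, and their sum was 23037 ± 6774 CPM in Pot1a wt/wt and 22224 ± 3997 CPM in Pot1a fl/fl. Ncl was at −0.02 ± 0.21 and Npm1 at −0.05 ± 0.21.

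Wdr12, which with Pes1 and Bop1 forms the PeBoW complex of 60S assembly, was the lowest gene of the set in B-lineage-like cells, at −1.14 ± 0.46 (adjusted p = 0.97). Its libraries lay between 126 and 180 CPM in Pot1a wt/wt and between 21.4 and 114 CPM in Pot1a fl/fl, on 54 and 21 counts, and did not overlap. Of all genes tested in this class, 0.334% lay wholly below in Pot1a fl/fl. Its partner Pes1 was not tested there.

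In granulocyte-like cells, the difference in Imp3 was wider. The Pot1a wt/wt libraries had 22.9, 13.03, 41.9, 13.5 and 43.7 CPM, on 9 counts in all, and the Pot1a fl/fl libraries 222, 261, 172 and 272 CPM, on 129 counts. The groups did not overlap, as in 1.2% of the genes tested. With 1 to 3 counts in each Pot1a wt/wt library, Imp3 passed the count filter through the Pot1a fl/fl libraries. The log2 fold was 3.12 ± 0.42 (adjusted p = 0.00048), the only call among 1334 genes (0.075%), and it passed without each library in turn (2.93 to 3.32). With cells assigned one by one from their markers, Imp3 did not pass the count filter in this class. The 18 other tested genes had a median of −0.10 and lay between −0.57 (Ddx21) and 0.54 (Mybbp1a). Their sum with the untested ones was 11471 ± 4252 CPM in Pot1a wt/wt and 10657 ± 3218 CPM in Pot1a fl/fl. For each 1000 counts of the other genes, Imp3 had 2.79 ± 1.82 counts (n = 5) against 22.8 ± 6.43 (n = 4).

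In erythroid-like cells, Imp3 had 26.6, 41.8, 158, 65.1 and 54.8 CPM in Pot1a wt/wt and 231, 389, 242 and 230 CPM in Pot1a fl/fl. The groups did not overlap, as in 0.795% of the genes tested, and the log2 fold was 1.83 ± 0.40, but no gene of the 1886 tested passed by edgeR (0.0%, with 61 at an unadjusted p below 0.05 and 0 by DESeq2), Imp3 included (adjusted p = 0.56). Without Pot1a wt/wt 3, the library with 158 CPM, the log2 fold was 2.44 (adjusted p = 0.021). With sex as a term it was 2.08 (adjusted p = 0.036). The 29 other tested genes had a median of −0.01, and their sum with the untested ones was 23306 ± 11680 CPM in Pot1a wt/wt and 22371 ± 2779 CPM in Pot1a fl/fl.

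In monocyte/macrophage-like cells, too few cells per library were present for a test. Imp3 had 1 count in all 5 Pot1a wt/wt libraries, at 45.7 CPM in Pot1a wt/wt 2 and 0 in the other 4, and 20 counts in Pot1a fl/fl libraries, at 224, 354, 227 and 139 CPM. A count of 0 allows up to 3 counts. The other genes summed to 10374 ± 2663 and 9288 ± 3109 CPM. No gene of the set other than Imp3 and Wdr12 had groups without overlap in any of the 4 classes.

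Whether the Imp3 difference itself varied between lineages was tested as an interaction. The log2 fold in B-lineage-like cells minus that in granulocyte-like cells was −1.32 ± 0.57 (adjusted p = 1.0), and that in erythroid-like cells minus that in granulocyte-like cells was −1.19 ± 0.56 (adjusted p = 0.99). No gene passed in either (0.0% of 2499 and of 2540, by edgeR), with 102 and 124 genes at an unadjusted p below 0.05. The difference between lineages was not detectable at this depth. The 95% interval of Imp3 began at 1.17 in B-lineage-like, at 2.30 in granulocyte-like and at 1.05 in erythroid-like cells. In that order, 22 of 24, 18 of 18 and 26 of 29 other genes had the upper end of their interval below it. As Imp3 was chosen for its difference, these separations are a description too.

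Of the genes within 150000 bp of Imp3, only Sin3a and Imp3 itself had enough counts for the test in whole marrow. Cspg4, whose promoter drives Cre in the NG2-cre transgene, lies 37605 bp before Imp3 on the same strand. It had 1 count in Pot1a wt/wt and 7 in Pot1a fl/fl libraries, and in granulocyte-like cells 0 and 5. The mesenchymal/osteolineage-like cluster held 2 of its counts. Snupn, 12480 bp beyond Imp3, an import adaptor of small nuclear ribonucleoproteins, had 20 and 28 counts, and in granulocyte-like cells 4 and 14. Of the other neighbours with counts, Snx33 had 1 and 5, Ptpn9 13 and 19, Gm10658 3 and 5, and 2700012I20Rik 0 and 3. Sin3a, a corepressor scaffold, had 94 and 86 counts, a log2 fold of 0.03 ± 0.26 (edgeR, adjusted p = 0.98), and in granulocyte-like cells 18 and 36 counts. In these cells, which number 152 and 170, Imp3 had 9 and 129. All these are counts not scaled to depth. Total counts were larger in Pot1a wt/wt in whole marrow and in Pot1a fl/fl in granulocyte-like cells. Whether the alleles or the transgene differ between the groups at this segment was not tested.

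Between lineages, the genes of the set that passed were higher in erythroid-like and B-lineage-like than in granulocyte-like cells, with the exception of Utp3, and no difference in Imp3 passed. In either direction together, 19 of 31 genes passed in erythroid-like cells, where 53.9% of all genes tested did, and 12 of 30 in B-lineage-like cells, where 41.7% did. These counts are near those shares. The clusters were formed without these genes. Summed, the other 41 genes lay between 8379 and 35160 CPM in erythroid-like cells (median 22070 over 9 libraries), between 13609 and 30766 CPM in B-lineage-like cells (21393) and between 4594 and 15363 CPM in granulocyte-like cells (10563). The erythroid-like and the B-lineage-like value was above the granulocyte-like value of the same library in 9 of 9 libraries. By the CPM given above, Imp3 too was higher in B-lineage-like than in granulocyte-like cells of each library. In erythroid-like cells it was higher in each library but Pot1a fl/fl 4. Its granulocyte-like values rest on 9 counts in Pot1a wt/wt and 129 in Pot1a fl/fl libraries, and this order is a description. The 2 comparisons share the granulocyte-like cells.

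Against granulocyte-like cells with library as a block, 18 of 31 tested genes of the set were higher and 1 lower in erythroid-like cells, where 26.8% of the 2540 genes tested were higher and 27.1% lower. Gnl3 lay between 253 and 1410 CPM (median 1006) in erythroid-like cells and between 57.1 and 268 CPM (175) in granulocyte-like cells, a log2 fold of 1.79 ± 0.18 (adjusted p = 2.8e-09). The box C/D core protein Nop56 (1.27 ± 0.18), Dkc1 (1.20 ± 0.18), the 18S maturation factor Nop14 (1.15 ± 0.23), Ddx21 (0.93 ± 0.15) and Npm1 (0.84 ± 0.13) followed. Nop58, Nolc1, Bms1, Mybbp1a, Ncl and Rsl1d1 rose by 0.60 to 0.83. Utp3 was the gene that fell, by 0.46 ± 0.17 on the log2 scale (adjusted p = 0.025). Imp3 had a log2 fold of 0.17 ± 0.25 (adjusted p = 0.58). Median folds were 0.65 over the 30 other genes tested and 0.09 over all genes tested.

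In B-lineage-like cells against granulocyte-like cells, 12 of 30 tested genes were higher and 0 lower, where 19.8% of the 2499 genes tested were higher and 21.9% lower. Ncl lay between 5273 and 13725 CPM (median 10266) and between 2068 and 6258 CPM (3754), a log2 fold of 0.79 ± 0.15 (adjusted p = 0.0001). Gnl3 (1.11 ± 0.21), Nop58 (0.84 ± 0.14), Dkc1 (0.78 ± 0.20), Nop56 (0.76 ± 0.17) and Npm1 (0.70 ± 0.14) rose as well. Tsr1, Gar1, Bms1, Wdr43, Ddx21 and Rsl1d1 rose by 0.49 to 1.09, and these had the highest adjusted p of the 12 (0.012 to 0.036). Imp3 had 0.32 ± 0.25 (adjusted p = 0.34). The count fell to 6 without Pot1a fl/fl 4, to 7 without Pot1a fl/fl 2 or Pot1a wt/wt 1, and to 7 under DESeq2.

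Of the pathway genes outside the set, 11 of 44 tested were higher and 1 was lower in erythroid-like cells, no larger a share than the 26.8% of all genes that were higher. Those of smallest p included the 60S factors Ftsj3 and Ddx27, the 40S factor Fcf1 and the exosome nuclease Dis3, and the lower gene was the SSU processome gene Utp11l, at −0.76. In B-lineage-like cells 12 of 48 were higher and 0 lower, where 19.8% of all genes were higher, among them Nol7, the ribosome biogenesis regulator Tcof1, the box C/D protein Nhp2l1 and Taf1d. Of 19 tested S phase genes 16 were higher in erythroid-like cells and 1 lower, and of 18 G2/M genes 12 were higher. In B-lineage-like cells 7 of 18 S phase genes and 13 of 19 G2/M genes were higher.

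Most of the tested genes of the set also stood higher in early than in later stages of maturation. In each of the 3 lineages an early cluster could be set against later ones of the same library, the promyelocyte-like cells (118 cells, named from Mpo, Elane, Prtn3 and Ctsg), the pro-B-like cells (90 cells, Igll1, Vpreb1 and Dntt) and the early erythroid-like cells (87 cells, Car1, Fam132a and Sphk1). Pooled over libraries, the other 41 genes summed to 20160 CPM in promyelocyte-like, 3683 CPM in myelocyte-like and 1807 CPM in late neutrophil-like cells. They summed to 34057 CPM in pro-B-like and 13070 CPM in pre-B-like cells. They summed to 38640 CPM in early erythroid-like, 14989 CPM in unstaged erythroid-like and 5732 CPM in late erythroid-like cells. In both genotypes the early cluster was the highest of its lineage. The early clusters also had the highest median counts per cell of their lineage, 2725.5, 3024.5 and 4011, so that the part of total RNA in these values was not tested beyond scaling to CPM.

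**Figure D3:**
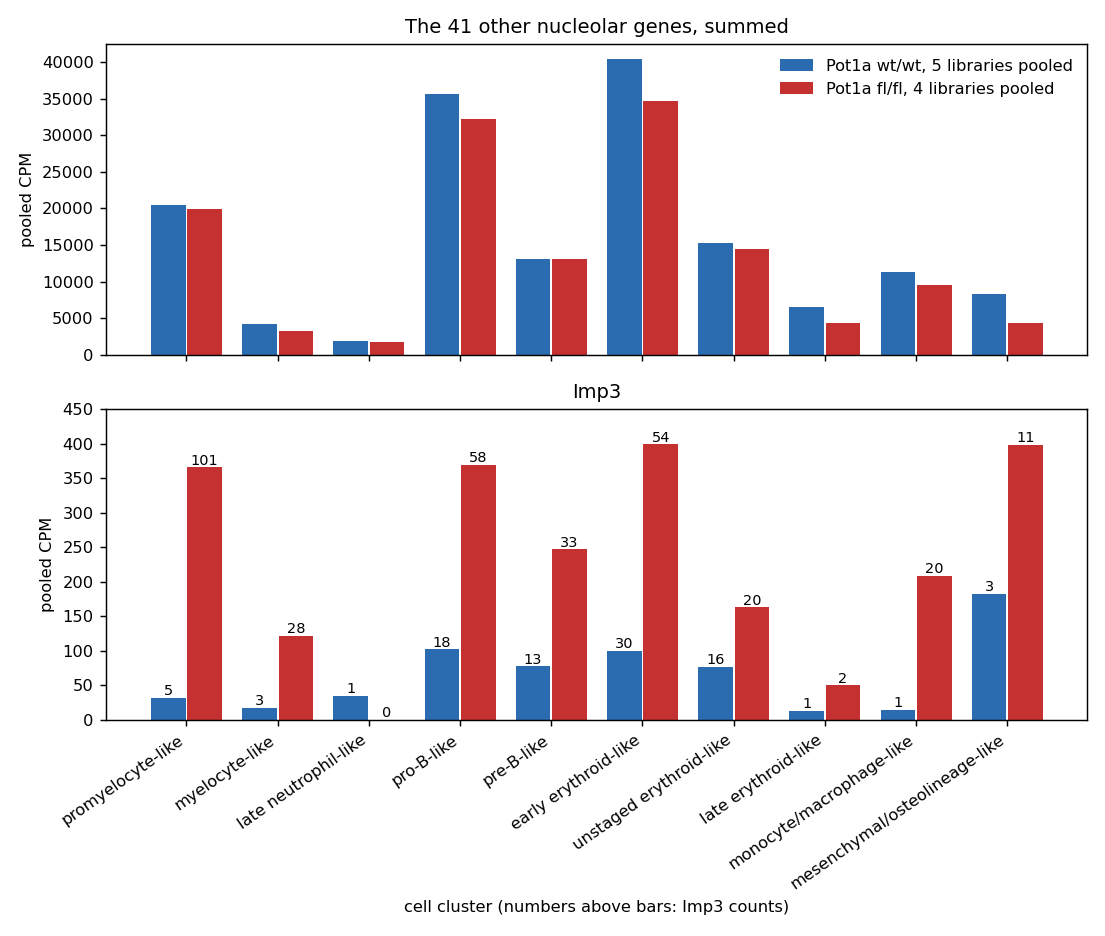
Pooled CPM of the 41 other genes summed (top) and of Imp3 (bottom) in the 10 clusters, with bars for Pot1a wt/wt and Pot1a fl/fl and the number of Imp3 counts above each Imp3 bar. The other genes reach 40449 and 34644 CPM in early erythroid-like cells and 1923 and 1704 CPM in late neutrophil-like cells, whereas Imp3 is higher in Pot1a fl/fl in each cluster but the late neutrophil-like, which holds 1 count.

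Promyelocyte-like cells stood above the later granulocyte-like cells in 19 of 22 tested genes and below in 0, where 58.5% of the 1244 genes tested passed (29.2% higher and 29.3% lower). Npm1 lay between 1062 and 2256 CPM (median 1896 over 9 libraries) in promyelocyte-like cells and between 74.8 and 530 CPM (216) in later cells, without overlap, a log2 fold of 2.30 ± 0.21 (adjusted p = 6.5e-12). Nolc1 (2.62 ± 0.25), Dkc1 (2.53 ± 0.35), Mybbp1a (2.36 ± 0.43), Gnl3 (2.28 ± 0.40) and Wdr43 (2.22 ± 0.44), a subunit of the SSU processome, had folds of a like size. Ncl rose by 1.61 ± 0.18 and Nop58 by 1.99 ± 0.20. Mphosph10 (0.59 ± 0.28, adjusted p = 0.071), Bms1 (0.41 ± 0.45) and Utp3 (−0.17 ± 0.25) did not pass.

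Imp3 was among the 19 genes that passed, and its fold was the smallest of these 19. Its log2 fold was 0.97 ± 0.41 (adjusted p = 0.039). In the 4 Pot1a fl/fl libraries it had 317, 376, 377 and 462 CPM in promyelocyte-like cells and 71.6, 174, 65.6 and 72.1 CPM in later cells, higher in the early cells of each. In the 5 Pot1a wt/wt libraries each held exactly 1 count in promyelocyte-like cells (23.8 to 48.3 CPM) and 0 to 2 counts in later cells (0 to 56.8 CPM), higher in 3 of 5. The stage difference of Imp3 thus rested on the Pot1a fl/fl libraries, and the call was lost without Pot1a fl/fl 1, 2, 3 or 4 (0.91, 1.17, 0.94 and 0.73) and under DESeq2 (1.05, adjusted p = 0.078).

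In pro-B-like cells against pre-B-like cells, 18 of 23 tested genes were higher and 0 lower, where 15.6% of the 1299 genes tested were higher and 20.9% lower. Ncl lay between 7304 and 19912 CPM (median 13998) in pro-B-like cells and between 3197 and 7628 CPM (4624) in pre-B-like cells, higher in 9 of 9 libraries, with a log2 fold of 1.40 ± 0.13 (adjusted p = 2.6e-11). Gnl3 rose by 2.17 ± 0.25, Mybbp1a by 1.87 ± 0.32, Dkc1 by 1.74 ± 0.25 and Npm1 by 1.52 ± 0.15. The H/ACA proteins Nop10, Gar1 and Nhp2 rose by 1.15 to 1.41. Imp3, Rrp1, Utp3, Nop14 and Bms1 did not pass, and Imp3 had 0.44 ± 0.34 (adjusted p = 0.32). It was higher in pro-B-like cells in 6 of 9 libraries, from 60.7 to 655 CPM against 28.7 to 381 CPM. When cells were assigned one by one from their markers in place of by cluster, 9 genes of the set passed.

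In early against late erythroid-like cells, 6 libraries had at least 5 cells of both stages, and 15 of 15 tested genes were higher in early cells, where 62.5% of the 507 genes tested passed (32.1% higher and 30.4% lower). Npm1 lay between 2303 and 4092 CPM (median 3821) in early and between 0 and 705 CPM (206) in late cells, a log2 fold of 3.07 ± 0.37 (adjusted p = 2.9e-10). Ncl lay between 7697 and 17136 CPM and between 468 and 4274 CPM, a fold of 2.30 ± 0.32. Mybbp1a (4.07 ± 0.76), Utp14a (3.43 ± 0.77), an SSU processome factor, and Ddx21 (3.33 ± 0.49) had the widest folds on 2, 3 and 9 counts in late cells. Imp3 had too few counts for the filter, 37 in early and 1 in late cells, and was higher in early cells in 6 of 6 libraries. With the unstaged erythroid-like cluster counted as late, a choice added after the data were seen, Imp3 rose by 1.02 (edgeR, adjusted p = 0.013) and 30 of 31 tested genes passed. The share of all tested genes that passed with this choice is not given here, so that this count is not read as a trait of the set.

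**Figure D4:**
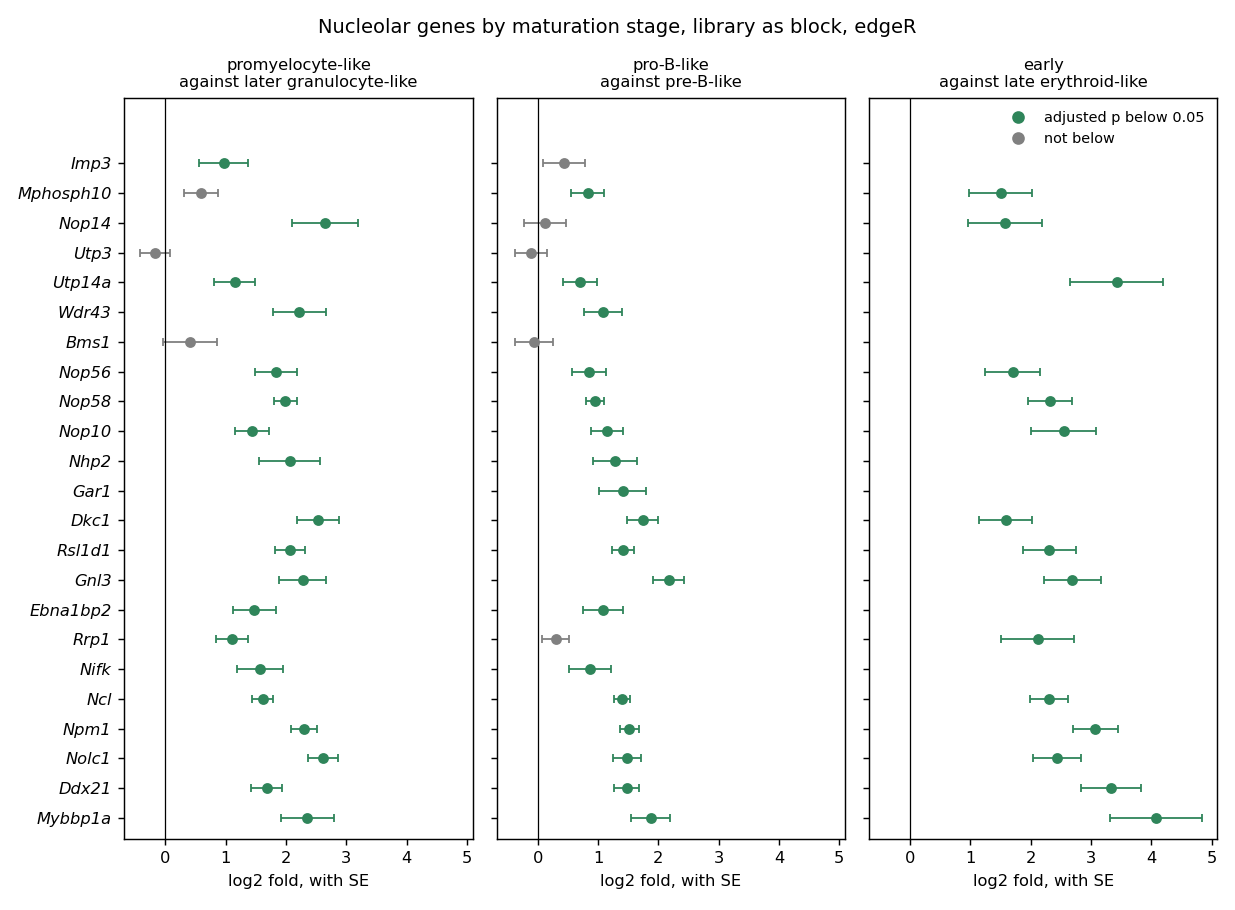
Log2 fold of each tested gene of the set, early against later stage of the same library, in granulocyte-like (9 libraries), B-lineage-like (9) and erythroid-like cells (6), with bars of ± 1 SE and green points for an adjusted p below 0.05. Imp3 lies at 0.97 and 0.44 in the first 2, below most of the set, and is not among the 15 genes of the third.

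A gene with few counts enters these tests mainly through the stage in which it is high, so that the shares of tested genes that passed are not shares of the set. Over all 42 genes without a filter, the pooled CPM was higher in promyelocyte-like cells in 41 genes (not in Polr1b), in pro-B-like cells in 40 (not in Utp3 and Heatr1) and in early erythroid-like cells in 42. Among all genes with counts, 71.1%, 45.5% and 71.1% were higher in the early stage by the same measure. Median log2 folds of the tested genes other than Imp3 were 1.84, 1.12 and 2.31, against 0.02, −0.09 and 0.19 over all genes tested.

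The pathway genes outside the set moved with the stages too. In promyelocyte-like cells 9 of 16 tested were higher and 0 lower, among them Ddx10, an SSU processome helicase, and Rrp15, a 60S factor. In pro-B-like cells 8 of 26 were higher and 2 lower, the lower ones including Nol7 (−0.55). In early erythroid-like cells 4 of 5 were higher. Of all genes tested in these comparisons, in that order, 29.2%, 15.6% and 32.1% were higher and 29.3%, 20.9% and 30.4% lower. The Myc and growth list was higher in 4 of 4, 3 of 3 and 2 of 3 tested genes. The G2/M list ran the other way, lower in the early stage in 10 of 11, 14 of 17 and 11 of 11 tested genes, and of the S phase genes 0 of 8, 1 of 15 and 0 of 5 were higher. Pooled G2/M genes stood at 7423 CPM in early and 20688 CPM in late erythroid-like cells, the reverse of the order of the nucleolar genes.

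Gene by gene, 35 of the 42 genes had at least 100 counts, and 26 of these had their highest pooled CPM in early erythroid-like cells. Ncl, Nhp2, Rrp1b and Rrs1 were highest in pro-B-like cells, Ebna1bp2 (a 60S factor) in promyelocyte-like cells, Utp18 in unstaged erythroid-like cells and Utp3 in monocyte/macrophage-like cells. Imp3 and Nip7 were highest in the mesenchymal/osteolineage-like cluster of 21 cells, named from Col1a1, Col1a2, Sparc and Cxcl12, where Imp3 had 3 counts in Pot1a wt/wt and 11 in Pot1a fl/fl cells. For Imp3 this order pools genotypes of unlike level, and within Pot1a fl/fl the mesenchymal and the early erythroid-like cells were level, at 398 and 399 CPM. The lowest cluster was the late neutrophil-like for 26 of the 35 genes and the late erythroid-like for 4. Gnl3 fell from 1460 CPM in early erythroid-like to 147 CPM in late erythroid-like cells, and from 362 CPM in promyelocyte-like to 40.1 CPM in myelocyte-like cells. Utp3 changed little with stage, at 334 and 241 CPM in the latter pair and 343 and 241 CPM in the former.

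**Figure D5:**
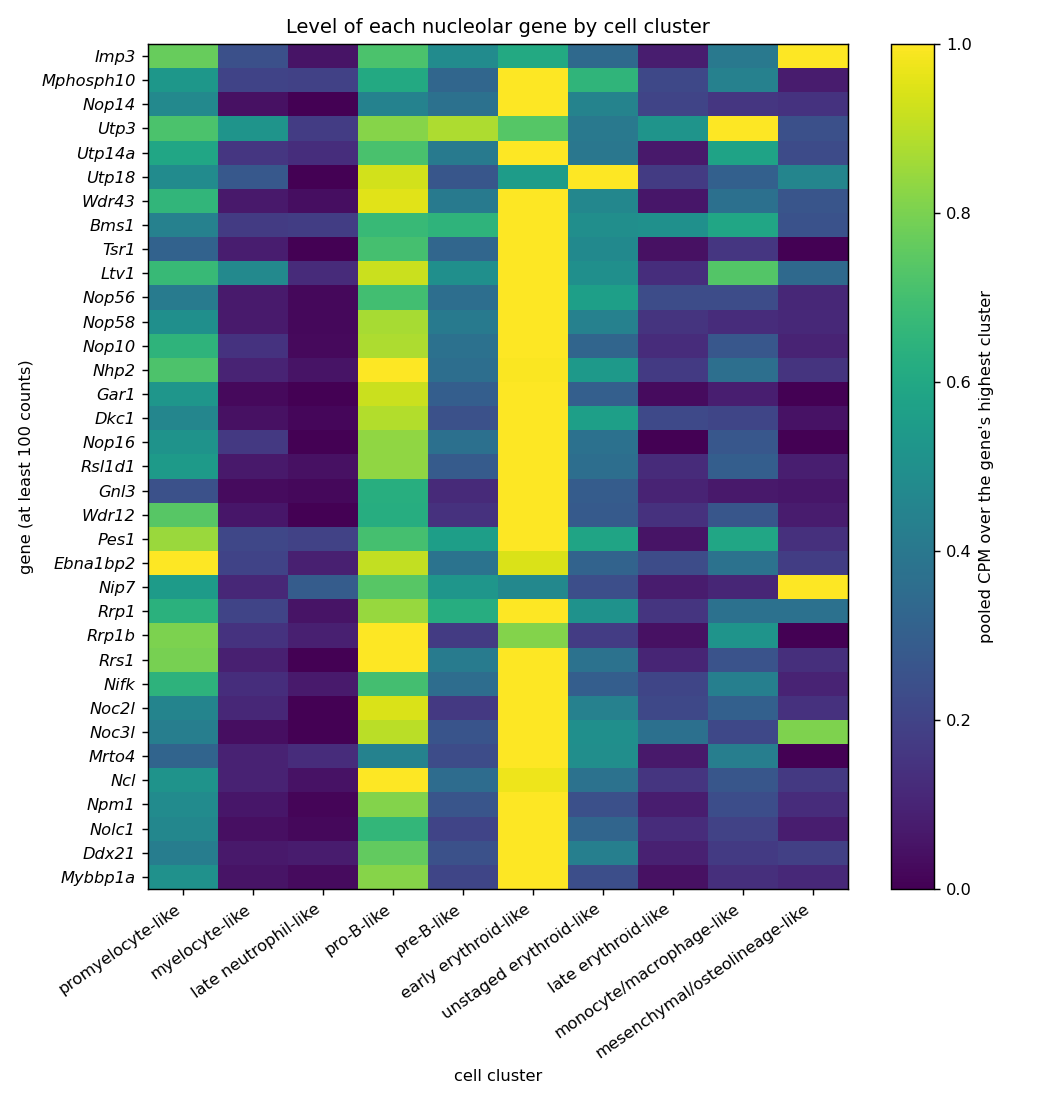
Pooled CPM of the 35 genes with at least 100 counts in each of the 10 clusters, divided by the highest cluster of the gene, so that colour compares clusters within a gene and not genes with each other. Early erythroid-like cells are the highest cluster of 26 genes and late neutrophil-like cells the lowest of 26.

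Across clusters, Imp3 and the other genes ran partly in parallel within a genotype. In Pot1a fl/fl cells, pooled Imp3 was 399 CPM in early erythroid-like, 398 in mesenchymal/osteolineage-like, 370 in pro-B-like, 366 in promyelocyte-like, 247 in pre-B-like, 209 in monocyte/macrophage-like, 163 in unstaged erythroid-like, 122 in myelocyte-like and 49.9 in late erythroid-like cells, and 0 in late neutrophil-like cells. In Pot1a wt/wt cells it was 102 CPM in pro-B-like, 100 in early erythroid-like, 77.6 in pre-B-like and 77.1 in unstaged erythroid-like cells, 183 in mesenchymal/osteolineage-like cells on 3 counts, and 13.2 to 34.96 in the other 5 blood clusters, each on at most 5 counts. Over the 10 clusters, Pearson's r between pooled Imp3 and the sum of the other genes was 0.70 in Pot1a fl/fl and 0.35 in Pot1a wt/wt cells. Without the mesenchymal cluster it was 0.91 and 0.79 over 9 clusters. By rank (Spearman's rho), the values were 0.68 in Pot1a fl/fl and 0.47 in Pot1a wt/wt cells over 10 clusters, and 0.93 and 0.67 over 9. These values describe 10 points that share libraries and differ in depth, and the clusters are not replicates.

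Within the early clusters, Imp3 and the other genes were set side by side by genotype. In promyelocyte-like cells Imp3 stood at 31.7 CPM on 5 counts in Pot1a wt/wt and at 366 CPM on 101 counts in Pot1a fl/fl cells, whereas the other genes stood at 20530 and 19949 CPM. In the early erythroid-like cells the values were 100 and 399 CPM for Imp3 and 40449 and 34644 CPM for the others, and in the pro-B-like cells 102 and 370 CPM and 35683 and 32230 CPM. These differences within clusters are pooled values and were not tested.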

How the data were processed

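Unselected bone marrow of 5 Pot1a wt/wt and 4 Pot1a fl/fl libraries was profiled by Drop-seq. The authors deposited counts per gene and cell for 100 barcodes per library, which they describe as read counts made with the Drop-seq software. How reads with several matches were treated is not given in the sources used here, which bears on Npm1, a gene with processed pseudogenes. The submitters' processing notes name STAR and mm10, with no versions. The limit that a count of 0 allows covers counting error only, whereas intervals of folds come from the SE over libraries.

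Cells with at least 200 counts and at most 25% mitochondrial counts were kept (899 of 900). Libraries were integrated with Seurat 5.3.0 (2000 variable genes, 20 components, resolution 1), with the 42 genes and their pathway lists left out. A cluster was named from the class with most markers, at least 3, among its 50 leading genes. Doublets called by Scrublet were left in, and were left out in an alternative. Counts were summed per library and class (at least 10 cells) or stage (at least 5 cells) and tested with edgeR 4.0.16 in R 4.3.3 (TMM, filterByExpr, quasi-likelihood test, Benjamini-Hochberg adjustment over all genes tested, threshold 0.05). Lineage and stage comparisons had library as a block. SE is the absolute log2 fold change over the root of F. The test was also run on counts simulated from a model of the kind it fits, with each library independent. That run does not check the test for libraries that share a mouse. DESeq2 1.42.0, other size factors, no count filter, replicate and sex blocks, cell-by-cell classes and left-out libraries were alternatives.

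The 42 genes, the pathway lists and the tests were chosen with earlier results of these data known. In each comparison the text names Imp3, the genes of the set past the threshold (the 12 of smallest p where more), in whole marrow also the 8 with most counts and the 3 of highest and lowest fold, and of the pathway lists those past the threshold (the 6 of smallest p where more) or else the 2 with most counts. Further genes, such as Mphosph10, Imp4, Wdr12, Rrs1 and the neighbours of Imp3, were chosen after their values were seen, and a few that the rule names are given only in counts and ranges. Sequences are from RefSeq on GRCm38.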

Additional observations from a re-analysis of the deposited data

Results flagged for a closer look

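Of 56 groups of 4 or 5 libraries examined, 6 held a library far from the others by Dixon's criterion. Chance alone gives about 1 in 20 where groups are separate and values continuous. Here the same Imp3 counts enter several groups, and the monocyte/macrophage-like flags rest on the same 1 count, so that no excess over chance is read from the 6. Noc3l in whole marrow stood at 85.93 CPM in Pot1a fl/fl 4, where the other 3 Pot1a fl/fl libraries lay between 34.39 and 41.86 CPM. Imp3 in erythroid-like cells stood at 389.3 CPM in Pot1a fl/fl 2, against 229.9 to 241.6 CPM in the other 3. Imp3 in monocyte/macrophage-like cells stood at 45.72 CPM in Pot1a wt/wt 2, on 1 count, and at 0 in the other 4 Pot1a wt/wt libraries, which made 3.115 Imp3 counts for each 1000 counts of the other genes. In B-lineage-like cells, Imp3 for each 1000 counts of the other genes was 6.961 in Pot1a wt/wt 5, against 3.012 to 3.763 in the other 4, and 26.67 in Pot1a fl/fl 3, against 12.46 to 12.81 in the other 3. Pot1a wt/wt 5 and Pot1a fl/fl 3 had the fewest counts of their genotypes and held 27 called doublets each, of 71 in the series, against 0 to 4 in the other libraries. With the called doublets left out, the log2 fold of Imp3 in B-lineage-like cells was 1.92 (edgeR, adjusted p = 0.028).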

How the results depend on the processing

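Numbers called in the set and among all genes are given in that order. In whole marrow, DESeq2 called 0 and 12 (Imp3, Noc3l, Rrs1, Tsr1, Nhp2 and Rrp1b had no adjusted p), and all genes called were 69 with no count filter, 6 with a sex block, and 1 with Pot1a wt/wt 2 and 3 as 1 library, with doublets left out or without the 2 libraries of lowest depth. In B-lineage-like cells, 0 and 0 were called by DESeq2, with Pot1a wt/wt 2 and 3 as 1 library and with a sex block, where Imp3 stood at 1.83, 1.787 and 1.826, and all genes called were 13 with no filter. In granulocyte-like cells, all genes called were 16 with no filter, and 0 and 0 with cell-by-cell classes. In erythroid-like cells, 1 of the set was called with no filter (11 genes, Imp3 at 1.707) and with a sex block (2 genes, 2.083).

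The replicate numbers did not pair the libraries (correlations of −0.0162, −0.0229, −0.17 and 0.0126). With the replicate block, all genes called were 7 in B-lineage-like and 4 in granulocyte-like cells, and in erythroid-like cells 1 of the set and 5 genes, with Imp3 at 1.994 (adjusted p = 0.020), while Imp3 in whole marrow was at 2.13 (adjusted p = 0.0042, by edgeR).

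Between lineages, all genes called with no filter were 2455 (erythroid-like) and 1623 (B-lineage-like), and DESeq2 called 7 of the set in B-lineage-like cells. In promyelocyte-like cells, all genes called were 1107 (DESeq2), 1239 (no filter) and 429 (cell-by-cell classes), with Imp3 at 1.049 (DESeq2) and 0.8077 (cell-by-cell). In pro-B-like cells, cell-by-cell classes gave 9 and 117. In early erythroid-like cells, DESeq2 called 608 genes, no filter gave 29 and 730, cell-by-cell classes 25 and 661, and the unstaged cluster as late 30 and 801. The interaction with B-lineage-like cells had 6 genes with no filter. The causes were not tested, beyond the number of genes that a filter leaves.

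With 1 library left out at a time, Imp3 ran from 1.722 to 1.965 in B-lineage-like cells (0 called each time), from 1.622 to 2.44 in erythroid-like cells (called without Pot1a wt/wt 3) and from 0.7346 to 1.168 in promyelocyte-like cells. Nol7 and Taf1d, which passed in no genotype comparison, changed sign. Nol7 ran from −0.1632 to 0.01253 in whole marrow and from −0.3369 to 0.07573 in granulocyte-like cells, where it was 0.02315 with no filter, 0.03472 with the replicate block and 0.08289 with cell-by-cell classes, and Taf1d was 0.4882 with the latter. In erythroid-like cells Taf1d ran from −0.07941 to 0.379 and was −0.006241 with the replicate block. Of 1632 values of named genes other than Imp3 under these alternatives, 1576 kept their direction and side of the threshold, 45 no longer passed and 11 changed sign.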

Other observations

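Across clusters, genes of the cell cycle stood in another order than the nucleolar genes. Pooled G2/M genes were highest in late erythroid-like cells (20688 CPM), followed by pre-B-like (17390 CPM) and unstaged erythroid-like cells (13632 CPM), and stood at 5605 CPM in promyelocyte-like cells. S phase genes were highest in unstaged erythroid-like cells (9129 CPM). The Myc and growth list was highest in early erythroid-like (3152 CPM), pro-B-like (3038 CPM) and promyelocyte-like cells (2447 CPM), the same 3 clusters in which the nucleolar genes were highest. These are pooled values over libraries and were not tested.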
